A study of Homo sapiens with 9 samples.

Results

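The 42 genes described here encode clathrin, its adaptor complexes AP-1, AP-2 and AP-3, the accessory proteins of the coat, the proteins that cut vesicles from the membrane, the sorting machinery of the endosome, and 3 receptors that travel this route. They were chosen by function, and a peak was counted for a gene when its midpoint lay on the same strand within the gene body on hg19. Of 8460 peaks in all, 56 were found in these genes, which were 27 of 3450 peaks for the miR-342-3p mimic and 29 of 5010 peaks for the miR-342-5p mimic.

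The peaks come from Ago-HITS-CLIP, in which Argonaute is crosslinked to the RNA it occupies, immunoprecipitated with an antibody against Ago2, and the attached RNA fragments are sequenced. All 9 libraries were made from MDA-MB-231HM, a highly metastatic variant of a human breast cancer cell line, with the genotype given as WT. The cells were transfected with 20 nM of a mimic in Lipofectamine RNAiMAX and crosslinked after 48 h, with 3 libraries each for miR-342-3p, miR-342-5p and the negative control. A mimic is a synthetic miRNA duplex that loads Argonaute at levels set by the transfection, so these peaks describe cells with an added miRNA in a single cell line. The authors called the peaks of each miR-342 mimic over the same negative control libraries and merged the replicates. Each peak has a score, described as reads above background, and scores start at 5. No value per library is given, so the depth is unknown, no SD between replicates could be computed, and the intervals below (95% Wilson, CI) cover counting error between peaks only. How the libraries were scaled is not given in the sources used here, so scores are read within a list. The abundance of each mRNA and the markers of the cell type cannot be read from peak lists, and their part in which genes held a peak was not tested.

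In clathrin-mediated endocytosis, AP-2 gathers cargo receptors at the plasma membrane and recruits clathrin, whose heavy and light chains form the cage of the vesicle. Dynamin then cuts the neck of the pit, and Rab GTPases direct the vesicle to early endosomes, where receptors are either returned to the surface or passed on for degradation. AP-1 and AP-3 are related adaptors that act at the trans-Golgi network and endosomes. Each adaptor complex has a pair of large subunits, a medium subunit that reads tyrosine signals in cargo and a small subunit that stabilises the core.

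A miRNA finds its targets mainly through its seed, bases 2 to 8, shown in capitals in the mature sequences of both mimics (RefSeq).
miR-342-3p: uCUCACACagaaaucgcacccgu
miR-342-5p: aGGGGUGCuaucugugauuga
An 8mer site pairs with the whole seed and has an A opposite base 1, a 7mer-m8 pairs with the whole seed, and a 7mer-A1 lacks the pair at base 8 but has the A. These were GUGUGAGA, GUGUGAG and UGUGAGA for miR-342-3p, and GCACCCCA, GCACCCC and CACCCCA for miR-342-5p. Both 7mers are contained in the 8mer and were counted once as the longest match. Sites were searched within 50 nt of the summit of a peak, on its strand and on the opposite strand.

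The miR-342-3p sites under peaks in these genes are shown because 4 of the 7 lay under peaks with a score above 100. Each stretch is 30 nt of GRCh37 in the direction of transcription, and capitals mark the site.
AP2B1, 8mer, chr17:33966627-33966656, plus strand: aucgccacucuGUGUGAGAacuuagacucg
AP1B1, 8mer, chr22:29745330-29745359, minus strand: auugccacacuGUGUGAGAaucuggacucc
TFRC, 8mer, chr3:195800926-195800955, minus strand: ccaaaaacugaGUGUGAGAgacuggcagga
HGS, 7mer-m8, chr17:79658561-79658590, plus strand: gaggugcgcguGUGUGAGcccugcuacgag
AP2A1, 7mer-m8, chr19:50309977-50310006, plus strand: ucccgucaccuGUGUGAGcugcuggcacag
AP1G1, 7mer-m8, chr16:71803548-71803577, minus strand: ccucacagaaauGUGUGAGcgaagcccaga
IGF2R, 7mer-m8, chr6:160526956-160526985, plus strand: uguguguguguGUGUGAGuggaguugaggu
The first 6 were in coding exons and the IGF2R site was in a 3′UTR. Complementarity ran past the seed in 6 of the 7, to base 11 of the miRNA in AP2B1, to base 10 in AP1B1 and AP2A1, and to base 9 in HGS, AP1G1 and IGF2R, and ended with the seed at base 8 in TFRC. The longest complementary run near the summit had a median of 8 bases in these 7 windows. It was also 8 bases in the 712 windows with a site in the whole miR-342-3p list, so longer pairing is not particular to these genes.

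The miR-342-5p sites in exons are shown in the same way. The first holds the highest score of this mimic in these genes.
AP2S1, 8mer, chr19:47341537-47341566, minus strand: gggaggagacuGCACCCCAcugccucuggg
EHD4, 8mer, chr15:42246025-42246054, minus strand: gacugagggcaGCACCCCAgggaaugcuuu
AP3D1, 7mer-A1, chr19:2132498-2132527, minus strand: guccugcuucguCACCCCAgaccuugccag
HGS, 7mer-A1, chr17:79668104-79668133, plus strand: ugcgucucugcCACCCCAgcagcccuacau
HGS, 7mer-A1, chr17:79668772-79668801, plus strand: gggggggccuuCACCCCAagcccaccuccc
RAB5C, 7mer-A1, chr17:40277166-40277195, minus strand: uccacccucgguCACCCCAaccucuggcuc
AP1B1, 7mer-A1, chr22:29752543-29752572, minus strand: auugccgagucuCACCCCAgcagcaaccug
The AP2S1 and RAB5C sites and the second HGS site were in 3′UTRs, and the other 4 were in coding exons. The remaining 2 sites of this mimic, an 8mer in ITSN2 and a 7mer-m8 in EPS15L1, were in introns.

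Argonaute peaks were found in 27 of the 42 genes (64.3%, CI 49.2–77.0%), where 19.5% of 20163 protein-coding genes had a peak of either mimic. MiR-342-3p peaks were in 16 genes (38.1%, CI 25–53.2%) and miR-342-5p peaks in 19 genes (45.2%, CI 31.2–60.1%), and each mimic had a peak in 11.8% of all protein-coding genes. Both mimics had a peak in 8 genes (AP1B1, AP1M1, AP3D1, CLTC, PICALM, HGS, STAM and EHD1), or 19% (CI 9.98–33.3%), beside 4.06% of all. The list was chosen with results of these data known, all genes include those that these cells do not express, and both peak lists share their control libraries. These shares are therefore a description with no test.

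Within AP-2, miR-342-3p peaks were in the coding exons of AP2A1, AP2B1 and AP2M1, and the single miR-342-5p peak was in the 3′UTR of AP2S1. AP2A2, which encodes the other α subunit, had no peak of either mimic. CLTC held 3 miR-342-3p peaks in coding exons, with scores of 30, 218 and 115, and 2 miR-342-5p peaks in its 5′UTR, with scores of 6 and 54.

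**Figure D1:**
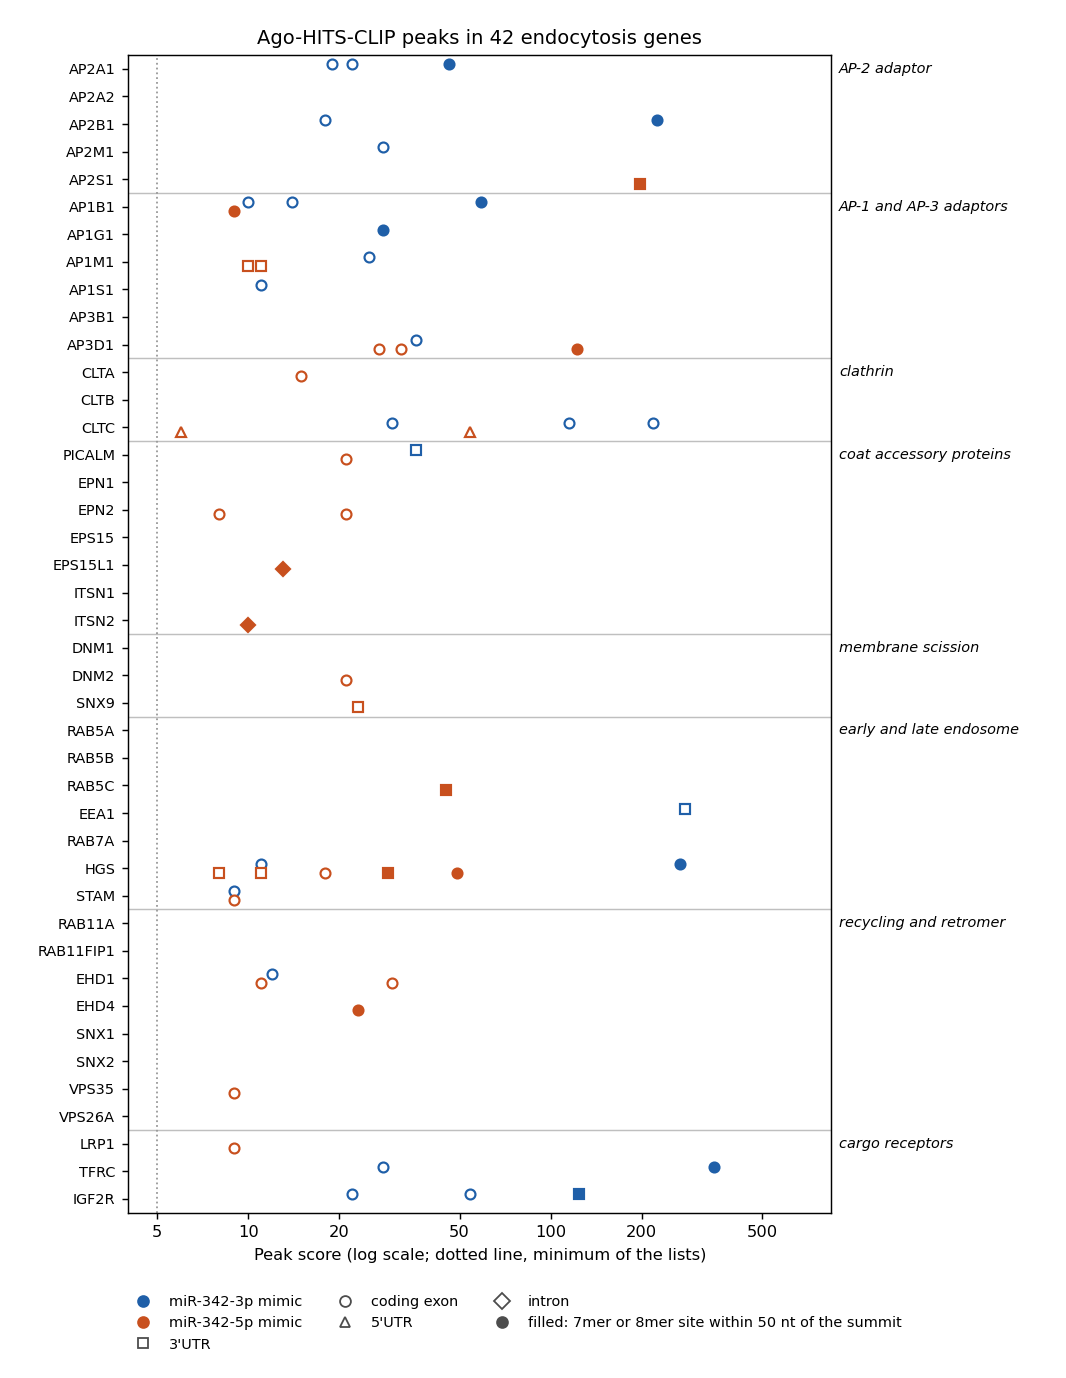
Each point is an Ago-HITS-CLIP peak in an endocytosis gene (rows, grouped by role), placed by its score on a log axis, with miR-342-3p in blue, miR-342-5p in orange, the shape giving the location and filled points a 7mer or 8mer site within 50 nt of the summit. The highest miR-342-3p scores were in TFRC (347), EEA1 (279) and HGS (269), the highest miR-342-5p scores were in AP2S1 (198) and AP3D1 (122), and 15 rows have no point.

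AP2B1 encodes β2-adaptin, the large AP-2 subunit that binds clathrin. Its miR-342-3p peak at chr17:33966614-33966665 had a score of 225, at percentile 96.2 of that list. The summit lay on the 8mer, 0.5 nt from its centre. A smaller peak with a score of 18 was at chr17:33963416-33963475, in the exon before.

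AP1B1 encodes β1-adaptin, the AP-1 counterpart of AP2B1, and carried the same 8mer. Its site lay under a miR-342-3p peak at chr22:29745320-29745372 with a score of 59. In both genes the site began at coding position 1296, in exon 11. The coding sequences were 76.5% identical over 2821 aligned nt, all 8 bases of the site were the same, and 24 of the 30 bases shown above were shared. As the genes are on different chromosomes and the shown stretches differ at 6 bases, the copies are distinct, but how reads that fitted both were treated is not given in the sources used here.

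The peaks around this site were arranged alike in both β-adaptin mRNAs. The main peak began at the junction of exons 10 and 11, 24 nt before the 8mer. A smaller peak, with a score of 18 in AP2B1 and 14 in AP1B1, ended in exon 10 at that same junction. On the spliced mRNA the smaller peak and the main peak were therefore continuous, although 3138 nt and 651 nt of the genome separate them. AP1B1 had a further miR-342-3p peak in exon 9, with a score of 10, and a 7mer-m8 in exon 10 (chr22:29746117-29746123) had its centre 24 nt from that summit on the mRNA. No peak covered that site.

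**Figure D2:**
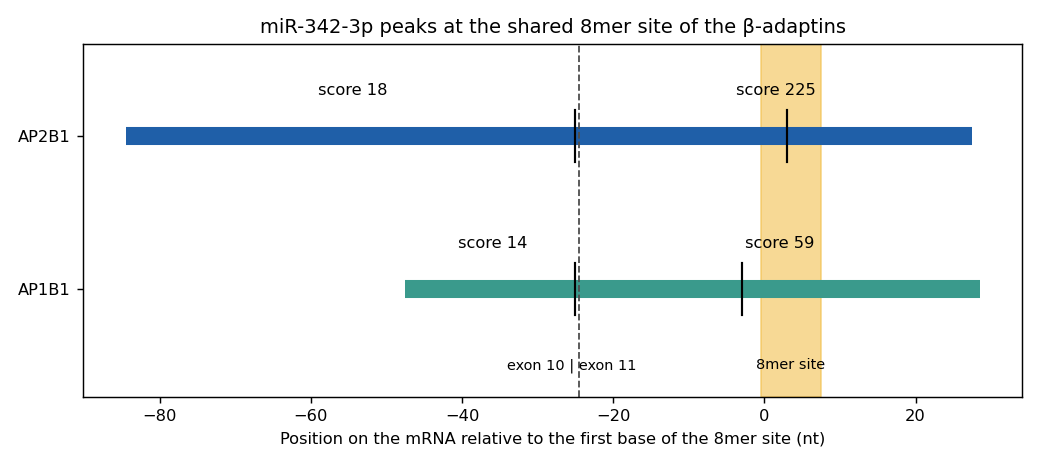
Bars show the miR-342-3p peaks next to the shared 8mer of AP2B1 (blue) and AP1B1 (green) on the spliced mRNA, with the position in nt from the first base of the site on the x axis, black ticks at the summits, a dashed line at the junction of exons 10 and 11 and the site shaded. In both mRNAs a peak with the lower score (18 and 14) ended at the junction and a peak with the higher score (225 and 59) ran from the junction over the site.

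AP2A1 encodes an α subunit of AP-2, which binds membrane lipids and accessory proteins. Its 3 miR-342-3p peaks had scores of 22, 19 and 46, all in coding exons. The last of these, at chr19:50309944-50310008, was in exon 23 of 23, at 98.7% of the coding sequence, and held the 7mer-m8. AP2A2, 78.2% identical over 2804 aligned coding nt, has another sequence there, with 5 of the 7 site bases and 16 of 30 bases the same.
AP2A2, the stretch aligned to the AP2A1 site: ucucagagauuAUGUGAAuugcucucagcg
No 7mer or 8mer of miR-342-3p was in the canonical AP2A2 mRNA.

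AP2M1, the medium subunit that reads tyrosine signals, had a single miR-342-3p peak with a score of 28 (chr3:183898704-183898770, exon 6) and no site near it. AP2S1, the small subunit, had a miR-342-5p peak of 195 nt with a score of 198 at chr19:47341423-47341617. Its score was at percentile 97.6 of the miR-342-5p list, and the centre of the 8mer was 2.5 nt from the summit.

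Among the other adaptors, miR-342-3p peaks were in AP1B1, AP1G1, AP1M1, AP1S1 and AP3D1. AP1G1 encodes γ-adaptin, the large AP-1 subunit that targets the complex to the trans-Golgi network, and had a peak with a score of 28 over a 7mer-m8 in exon 6. AP1M1, the medium AP-1 subunit, had a coding peak with a score of 25, and AP1S1, the small subunit, a coding peak of 15 nt with a score of 11. Neither held a 7mer or 8mer.

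MiR-342-5p peaks were in AP1B1, AP1M1 and AP3D1. In AP1B1 the score was 9, over the 7mer-A1 in exon 6. AP1M1 had scores of 10 and 11 in a pair of 3′UTR peaks 1 nt apart. AP3D1 encodes δ-adaptin, the large AP-3 subunit involved in transport to lysosomes and related organelles. It had miR-342-5p peaks in the adjacent exons 4, 5 and 6, with scores of 27, 122 and 32. These met at the exon junctions, so on the spliced mRNA they were continuous, although they were counted separately. The 7mer-A1 was in exon 5 under the highest of these (chr19:2132470-2132577). Its miR-342-3p peak, with a score of 36, was further along the mRNA in exon 9. AP3B1, the β subunit of AP-3, had no peak and no 7mer or 8mer of either mimic in its mRNA.

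CLTC encodes the clathrin heavy chain, the main strand of the coat. The miR-342-3p peak with a score of 218 was at chr17:57741203-57741289 in exon 9, and that with 115 was at chr17:57743867-57743932 in exon 12. Neither held a 7mer or 8mer, and the nearest such site on the mRNA was 875 nt from a summit. The peak in exon 12 did hold a match to bases 3 to 10 of the miRNA, shifted by 1 base from the seed, with the word centred 2.5 nt from the summit.

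Such a shifted match (bases 3 to 8, GUGUGA) was found in 5 of the 19 miR-342-3p windows of these genes that held no seed match of 6 or more nt (26.3%), and in 1 window on the opposite strand. Over the whole miR-342-3p list it was in 539 of 2628 such windows (20.5%), and in 1.45% on the opposite strand. The 5 stretches are shown because they lie under peaks that the seed search left without a site, with the paired bases in capitals.
CLTC, bases 3 to 10, chr17:57743893-57743922, plus strand: auauugcucaaCUGUGUGAaaaggcuggcc
AP2A1, bases 3 to 9, chr19:50302927-50302956, plus strand: ccucuacgccaUGUGUGAccggagcaaugc
AP3D1, bases 3 to 9, chr19:2127154-2127183, minus strand: uccucuaugaaUGUGUGAacaccgugauug
AP2M1, bases 3 to 8, chr3:183898734-183898763, plus strand: augugcuggagaGUGUGAaccugcucaugu
PICALM, bases 3 to 8, chr11:85669750-85669779, minus strand: cuuauuuggaaaGUGUGAaauuuguauuug
The scores of these peaks were 115, 22, 36, 28 and 36 in that order. For miR-342-5p the corresponding word, GCACCC, was in none of the 14 windows without a seed match, beside 8.81% of such windows in its list. This search was chosen after the peaks had been seen, and a match is a description of the sequence.

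The clathrin light chains regulate the assembly of the heavy chain. CLTA had a miR-342-5p peak with a score of 15 in exon 5, with no site. CLTB had no peak.

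The accessory proteins of the coat had scores from 8 to 36. PICALM, an assembly protein that binds AP-2 and clathrin, had a miR-342-3p peak with a score of 36 in its 3′UTR and a miR-342-5p peak with a score of 21 in an exon that is coding in some transcripts and intronic to the canonical one. EPN2, an epsin that bends the membrane, had miR-342-5p peaks with scores of 8 and 21, 2 nt apart in exon 10. EPS15L1, a scaffold of early pits, and ITSN2, a scaffold that binds dynamin, each had a miR-342-5p peak in an intron, with scores of 13 (chr19:16485945-16486039) and 10 (chr2:24465016-24465072), over the 7mer-m8 and the 8mer named above. EPN1, EPS15 and ITSN1, the close relatives of these proteins, had no peak.

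Of the genes for membrane scission, DNM2, the dynamin found in most tissues, had a miR-342-5p peak with a score of 21 in exon 20, and SNX9, a dynamin-binding sorting nexin, had a miR-342-5p peak with a score of 23 in its 3′UTR. Both held a 6mer, CACCCC, and no longer match. DNM1, the neuronal dynamin, had no peak.

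At the early endosome, EEA1 and HGS had the highest miR-342-3p scores after TFRC. EEA1, the tether that binds Rab5 and endosome lipids, was bound in its 3′UTR with a score of 279 (chr12:93169669-93169737), at percentile 97.3 of the list. The peak held no 7mer or 8mer, and the nearest, a 7mer-A1, was 78 nt from the summit. The longest complementary run within 50 nt of the summit was 4 bases.

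HGS encodes the ESCRT-0 subunit that sorts ubiquitinated receptors towards lysosomes, and had the most peaks of the 42 genes, 7 in all. Its miR-342-3p peaks had scores of 11 in exon 7 and 269 in exon 8 (chr17:79658500-79658597), the latter over the 7mer-m8. Its 5 miR-342-5p peaks had scores of 18, 49, 29, 8 and 11 from the 5′ to the 3′ end. The peaks with 49 (chr17:79668052-79668161, coding exon 21) and 29 (chr17:79668713-79668822, 3′UTR) each held a 7mer-A1, and the last held a 6mer. The window of this last peak also held a site of the other mimic, a miR-342-3p 7mer-A1, which no other of the 56 windows did. STAM, the partner of HGS in ESCRT-0, had a peak with a score of 9 for each mimic, in exons 2 and 10, without a site.

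Of the Rab5 GTPases, which mark early endosomes, RAB5C had a miR-342-5p peak with a score of 45 in its 3′UTR (chr17:40277140-40277229) over the 7mer-A1. The peak also lies in another annotated gene on the same strand. RAB5A, RAB5B and RAB7A, the GTPase of late endosomes, had no peak.

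In the recycling group, EHD1 and EHD4 encode ATPases that form tubules on recycling endosomes. EHD4 had a miR-342-5p peak with a score of 23 (chr15:42245992-42246138) over an 8mer, whose centre was 27.5 nt from the summit, the farthest of the 16 sites. The aligned positions of EHD1, EHD2 and EHD3 had 2, 3 and 5 of the 8 site bases, and their identity to EHD4 over the coding sequence was 76.8%, 74.1% and 77.1%.

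EHD1 held the only pair of overlapping peaks of both mimics in these genes. The miR-342-3p peak at chr11:64645533-64645604 (score 12) and the miR-342-5p peak at chr11:64645533-64645599 (score 11) shared 67 nt, with summits 1 nt apart. The miR-342-3p window had no match of 6 or more nt and the miR-342-5p window had a 6mer 47.5 nt from the summit. This 6mer lay outside the peak, past the exon junction at which the peak stopped, and the window on the spliced mRNA held none. A second miR-342-5p peak in exon 2 had a score of 30 and a 6mer. It began at that same junction, so on the spliced mRNA both miR-342-5p peaks were continuous. In the other 7 genes with peaks of both mimics, the closest summits were 2348 nt apart on the genome, introns included, in HGS. On the spliced HGS mRNA the midpoints of these peaks were much closer, at nt 665 for miR-342-3p and nt 944 for miR-342-5p.

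VPS35, the core of the retromer that retrieves receptors from endosomes, had a miR-342-5p peak with a score of 9 in exon 11. VPS26A, another retromer subunit, the sorting nexins SNX1 and SNX2, the recycling GTPase RAB11A and its effector RAB11FIP1 had no peak.

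Of the cargo receptors, TFRC and IGF2R had miR-342-3p peaks alone and LRP1 a miR-342-5p peak alone. TFRC, the transferrin receptor that brings iron into the cell and the classic cargo of AP-2, had the highest score of the 42 genes. This was 347, at chr3:195800916-195800996 in exon 4 of 19, over an 8mer whose centre was 10.5 nt from the summit. A second peak in exon 17 had a score of 28 and a 6mer, UGUGAG.

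IGF2R, the receptor that carries lysosomal enzymes and takes up IGF2, had miR-342-3p peaks with scores of 22 and 54 in coding exons and 124 in its 3′UTR (chr6:160526876-160526988). The window of the 3′UTR peak held an unbroken run of 34 nt in which G and U alternate, and the 7mer-m8 overlapped its end. No other miR-342-3p window of these genes held such a run of 10 nt or more, beside 12.7% of windows in the whole list. The single 8mer for miR-342-3p in IGF2R was elsewhere in the 3′UTR (chr6:160531089-160531096), with no peak over it.

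LRP1, a large receptor for lipoproteins and proteases, had a single miR-342-5p peak with a score of 9 and a width of 22 nt, at the end of exon 69 of 89. The peak ended at the exon junction. A 7mer-m8 lies in exon 70, with its centre 13 nt from the summit on the spliced mRNA, but outside the peak.
LRP1, site in exon 70 (chr12:57597179-57597185), plus strand: cgagaaagacuGCACCCCccgcugugacau
The LRP1 mRNA held 13 miR-342-5p sites and 4 miR-342-3p sites, more in all than any other of the 42, and no peak covered any of them.

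Most of the miR-342-3p peaks in these genes were in coding sequence. Coding exons held 24 of the 27 miR-342-3p peaks (88.9%, CI 71.9–96.1%), where 55.0% of that list was in coding exons. The 3′UTR held 3 (11.1%, CI 3.85–28.1%), beside 34.2% of the list, and no peak was in a 5′UTR or an intron. Both list shares were outside the intervals, which count several peaks of a gene as independent. With 1 peak per gene, the one with the highest score, the 3′UTR share was 18.8% (CI 6.59–43.0%), and the list share was then within the interval, as it was for scores above 50 (22.2%, CI 6.32–54.7%) and above 100 (28.6%, CI 8.22–64.1%). In each of these cases the list share was still that of all its peaks. For miR-342-5p, 17 of 29 peaks were in coding exons (58.6%, CI 40.7–74.5%) beside 69.5% of the list, 8 in a 3′UTR (27.6%, CI 14.7–45.7%) beside 17.9%, 2 in a 5′UTR and 2 in introns, and the list shares of coding exons and 3′UTRs were within the intervals.

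The share of 3′UTR peaks was 16.5 percentage points lower for miR-342-3p than for miR-342-5p in these genes, and the difference did not pass the test (odds ratio 0.328, p = 0.181, adjusted p = 0.181, two-sided Fisher's exact test). With 1 peak per gene the difference, miR-342-3p minus miR-342-5p, was -2.3 points (p = 1.0, Fisher's exact test). Peaks of a gene are not independent, and 3 of the 8 miR-342-5p peaks in 3′UTRs were from HGS and 2 from AP1M1.

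For miR-342-3p, a 7mer or 8mer was found near the summit of 7 peaks (25.9%, CI 13.2–44.7%), and for miR-342-5p near that of 9 (31.0%, CI 17.3–49.2%). The shares of the whole lists, 20.6% and 33.0%, were within these intervals. With the highest-scoring peak of each gene alone the shares were 43.8% (CI 23.1–66.8%) and 42.1% (CI 23.1–63.7%), and the miR-342-3p interval then lay above the list share. The list was not cut in the same way, so these are unlike sets of peaks. Among miR-342-3p peaks of the whole list with a score above 100, 27.5% held a site, which is within that interval. No site was found when these windows were read on the opposite strand, and the difference between strands passed the test for miR-342-3p (p = 0.0156, adjusted p = 0.0234) and miR-342-5p (p = 0.00391, adjusted p = 0.0117, exact McNemar tests, Benjamini-Hochberg adjustment over the 3 tests of this report). Sites were also rare on the opposite strand in the whole lists (0.638% and 1.46% of windows), so the strand difference is not particular to these genes. It could be foreseen from the lists, and the genes were chosen with results of these data known. The p-values therefore describe these windows and lend no independent support. The miR-342-3p sites were 3 8mers and 4 7mer-m8, and the miR-342-5p sites were 3 8mers, 1 7mer-m8 and 5 7mer-A1.

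**Figure D3:**
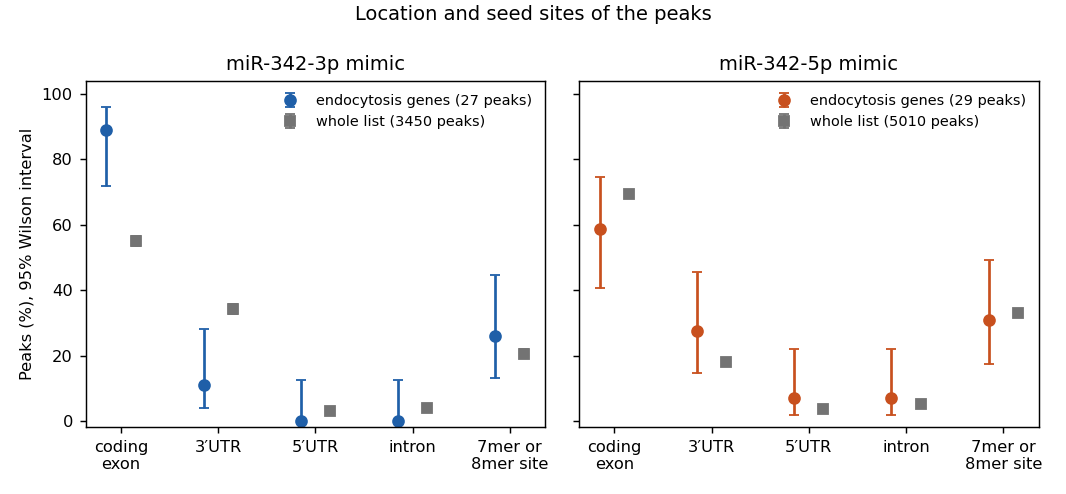
The y axis gives the share of peaks in each location, and with a 7mer or 8mer site within 50 nt of the summit, for the endocytosis genes (coloured circles with 95% Wilson intervals, 27 and 29 peaks) and for the whole list of each mimic (grey squares, 3450 and 5010 peaks). In these genes 88.9% of miR-342-3p peaks were in coding exons beside 55.0% of the list, and the shares with a site were 25.9% and 31.0% beside 20.6% and 33.0%.

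The sites were near the summits. For miR-342-3p the distance from the summit to the centre of the site was 0.5 to 15.0 nt, with a median of 6.5 nt, and for miR-342-5p 0.5 to 27.5 nt, with a median of 6.0 nt. Every one of the 16 sites lay wholly within its peak.

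Peaks with a site had the higher median score for both mimics, given as a description with no test. For miR-342-3p the median score was 124 with a site (range 28–347) and 23.5 without (9–279), and for miR-342-5p it was 29 (9–198) and 13 (6–54). The ranges overlapped, as the 279 of EEA1 and the 218 of CLTC were without a site. These groups rest on windows of the genome. The miR-342-3p peaks of AP2B1 (18) and AP1B1 (14 and 10) counted as without a site, but had one within 50 nt on the spliced mRNA. The same held for the miR-342-5p peak of LRP1 (9). All of these scores were below the median without a site of their mimic, so moving these peaks would bring the medians closer. Part of the difference therefore comes from the choice of window, and the medians were not recomputed. Over all peaks the medians were 27.5 with a site and 23 without for miR-342-3p, and 22 and 17 for miR-342-5p. Scores above 100 were found for 7 of the 27 miR-342-3p peaks (25.9%), where 10.8% of that list was above 100, and for 2 of the 29 miR-342-5p peaks (6.9%), beside 7.21%. A score under 10 was found for 1 of the 27 (3.7%, beside 6.49% of the list) and 7 of the 29 (24.1%, beside 14.5%).

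Many peaks stopped at exon junctions, where the window on the genome runs on into an intron. Under miR-342-3p, an edge of the peak coincided with an exon junction of the canonical mRNA in 15 of 27 cases (55.6%), and under miR-342-5p in 12 of 29 (41.4%), beside 27.8% and 26.6% of the lists. The list shares cover peaks of every location. In these genes 88.9% of miR-342-3p peaks were in coding exons beside 55.0% of the list, and for miR-342-5p 58.6% beside 69.5%. The share among coding exon peaks of the lists alone was not counted. When the 50 nt were instead counted along the spliced mRNA, a site was found for 10 of the 27 (37%) and 10 of the 29 (34.5%). The added peaks were the second AP2B1 peak, both smaller AP1B1 peaks and the LRP1 peak. This search was chosen after the data had been seen.

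Sites were also counted along the canonical mRNAs, whether or not a peak was near. Which transcripts of a gene these cells make cannot be read from peak lists, so some of these sites may be absent from the cells. The 42 mRNAs held 42 miR-342-3p sites in 23 genes, and 7 were under a peak (16.7%, CI 8.32–30.6%), where 5.73% of 11063 sites in all protein-coding genes were. In coding exons 6 of 19 were under a peak (31.6%, beside 7.18% of all), and in 3′UTRs 1 of 22 (4.55%, beside 4.73%). All 3 coding 8mers, in AP2B1, AP1B1 and TFRC, were under a peak (CI 43.9–100%), beside 112 of 578 coding 8mers in all genes (19.4%). For both mimics, all genes include those that these cells do not express, and the 42 were chosen with results of these data known. The shares of covered sites are therefore a description with no test.

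For miR-342-5p there were 47 sites in 23 genes, and 7 were under a peak (14.9%, CI 7.41–27.7%), beside 11.3% of 13010. Coding exons had 4 of 20 (20.0%, beside 15.8%) and 3′UTRs 3 of 25 (12.0%, beside 6.49%). Of 5 8mers, 2 were under a peak, those in AP2S1 and EHD4 (CI 11.8–76.9%), beside 323 of 1698 in all genes (19%). A site in an mRNA was therefore covered by a peak in fewer than 1 in 5 cases for either mimic.

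**Figure D4:**
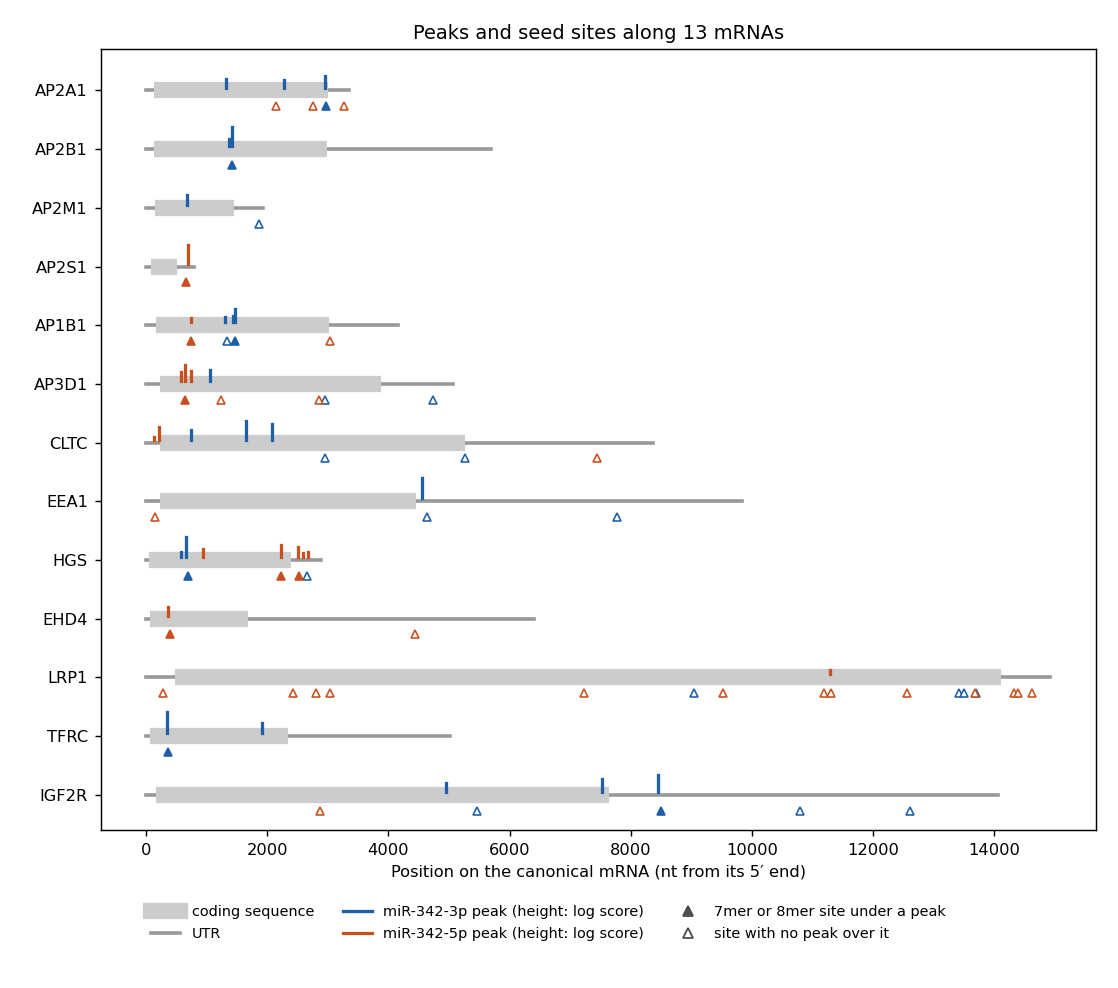
The canonical mRNAs of 13 of the genes are drawn from their 5′ end (x axis, nt) with the coding sequence as a grey box, peaks as vertical bars whose height follows the log of the score (miR-342-3p blue, miR-342-5p orange) and 7mer or 8mer sites as triangles, filled where a peak lies over them. The filled triangles fall under or beside the tall bars in AP2B1, AP2S1, HGS and TFRC, while the 13 miR-342-5p sites of LRP1 are all open.

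The 15 genes without a peak were AP2A2, AP3B1, CLTB, EPN1, EPS15, ITSN1, DNM1, RAB5A, RAB5B, RAB7A, RAB11A, RAB11FIP1, SNX1, SNX2 and VPS26A. Their mRNAs held 13 miR-342-3p sites in 8 genes and 10 miR-342-5p sites in 6 genes, with none of either in 4 genes. EPN1 alone held 4 and 5, all in a canonical 3′UTR of 14180 nt. A gene without a peak is a gene with no peak of score 5 or more, and binding below that score, or to an mRNA of low abundance, was not detectable here. Conversely, no 7mer or 8mer of the mimic was in the canonical mRNA of 4 genes bound under miR-342-3p and of 6 bound under miR-342-5p.

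Of 142 other genes of endocytosis and the endosome, chosen by function with results of these data known, 50 had a peak (35.2%, CI 27.8–43.4%). Each mimic had a peak in 30 of them (21.1%, CI 15.2–28.6%). Of all protein-coding genes, 19.5% had a peak of either mimic, and each mimic had a peak in 11.8%. These shares were not tested. The 41 miR-342-3p and 51 miR-342-5p peaks had a site in 22.0% and 47.1% of cases. The median of the highest score per gene was 33.5 and 25.5, beside 41 and 21 in the 42 genes.

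Of these other genes, ITGB1, MET and EHD2 had the highest miR-342-3p scores. ITGB1, the β1 integrin subunit, had coding peaks with scores of 671 and 222, 1 nt apart.
ITGB1, 7mer-m8 under the score of 671, chr10:33200556-33200585, minus strand: caagugucguguGUGUGAGugcaaccccaa
ITGB1, 8mer under the score of 222, chr10:33200402-33200431, minus strand: caagggcaaacGUGUGAGAugugucagacc
EHD2, a relative of EHD1 at caveolae, had a score of 323 in its 3′UTR, and MET, a receptor tyrosine kinase, 174 in a coding exon, neither with a site. The highest miR-342-5p scores were in HSPA8, the chaperone that strips clathrin from vesicles, with 690 in a coding exon and 140 in its 5′UTR, in LRP5, a Wnt coreceptor, with 81, and in AAK1, the kinase that phosphorylates the medium subunit of AP-2, with 59 in its 3′UTR. All 4 of these peaks held a site, and that of HSPA8 is shown because its score was above every miR-342-5p score in the 42 genes.
HSPA8, 7mer-m8, chr11:122929446-122929475, minus strand: ggcauaccuccuGCACCCCgagguguuccu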

How the data were processed

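Ago-HITS-CLIP was analysed from 9 libraries of MDA-MB-231HM cells. According to the methods and the submitters' processing notes, reads were trimmed (cutadapt 1.13), collapsed by molecular identifier (UMI-tools), mapped to hg19 (TopHat2 2.0.13), and peaks were called for each strand over the negative control (MACS2 2.1.1.20160309). The authors deposited 2 lists in which the replicates are merged, each peak having a position, a summit and a score of at least 5, in reads above background. Depth per sample is not given, and the intervals cover counting error only.

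Starts were read as 0-based and are printed 1-based. Peaks were placed by midpoint and strand on GENCODE release 44 mapped to GRCh37, a 3′UTR taking precedence over a coding exon, then a 5′UTR and an intron. GENCODE counts the stop codon within the 3′UTR. Sites were read from the GRCh37 genome and mature miRNAs from RefSeq (all 42 members and both miRNAs matched). Tests were two-sided Fisher's exact and exact McNemar tests, which treat peaks as independent. All members are named, those with a site or among the 3 highest scores of a list in full, and from the wider list the 3 genes with the highest score per mimic. The members, lists and tests were chosen with earlier results of these data known, and searches on spliced mRNA, for shifted matches, exon junctions and related genes after seeing the data. The search for sites was tested on motifs planted in random sequence. Placement was tested on random positions in the annotated regions of member transcripts, each within its own transcript. The precedence between transcripts was not tested. Python 3.11.15, pysam 0.24.0, samtools 1.23.1, pandas 2.3.3, scipy 1.17.1, biopython 1.88 and matplotlib 3.10.9 were used. RNA-seq and proteomics were not analysed here.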

Additional observations from a re-analysis of the deposited data

How the results depend on the processing

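Of 107 alternatives over 11 results, 84 counted as unchanged, 17 moved and 6 no longer passed the test. Unchanged tests kept the direction and the side of the threshold, and unchanged shares moved within the counting error. Unchanged numbers of peaks and genes stayed within a fixed ratio, such as 29 to 22 miR-342-5p peaks at a minimum score of 10. Placement by summit or by any overlap left 27 and 29 peaks, as in the main setting, so these alternatives could hardly differ from it. The comparison of 3′UTR shares between mimics passed the test in no setting, so unchanged there means not passed. All alternatives that moved or no longer passed came from the minimum score and the kind of site. With scores above 50, 9 peaks of miR-342-3p (7 genes) and 3 of miR-342-5p (3 genes) were left, and 55.6% and 66.7% held a site, which was also the difference from the opposite strand in percentage points (exact McNemar p = 0.0625 and 0.5). With scores above 100, 7 (6 genes) and 2 (2 genes) were left, of which 28.6% and 50% were in a 3′UTR and 57.1% and 100% held a site (p = 0.125 and 0.5, exact McNemar test). The 3 and 2 miR-342-5p peaks cannot reach 0.05 in this test, and of the miR-342-3p peaks 5 of 9 and 4 of 7 held a site. With 8mers alone the shares with a site were 11.1% and 10.3% (p = 0.25 and 0.25, exact McNemar test), and with 6mers counted the miR-342-5p share was 51.7%. A minimum score of 10, placement by summit or by any overlap, exons alone, 1 peak per gene, windows of 25 nt or the whole peak changed no test's call, although with 1 peak per gene the share of the whole miR-342-3p list came to lie within the interval for 3′UTRs (18.8%, CI 6.59–43.0%) and below that for sites (43.8%, CI 23.1–66.8%). The list itself was not cut to 1 peak per gene. No paired analysis was possible because the deposited lists merge the replicates, and for the same reason no replicate could be left out. The files hold no reads per library, so how far depth limits the peaks found is unknown.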
